A study of Arabidopsis thaliana with 15 samples.

Results

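This report follows 9 genes of sulfate uptake, sulfate reduction and the sulfur deficiency response through salt, flg22 and mannitol treatment of Arabidopsis roots. They are the sulfate transporters SULTR1;1 (AT4G08620) and SULTR1;2 (AT1G78000), the adenosine 5′-phosphosulfate (APS) reductases APR1 (AT4G04610), APR2 (AT1G62180) and APR3 (AT4G21990), the sulfur deficiency induced proteins SDI1 (AT5G48850) and SDI2 (AT1G04770), and the low sulfur response proteins LSU1 (AT3G49580) and LSU2 (AT5G24660). The genes were taken by their locus identifiers from a named list, not by a threshold on their levels. The list was chosen with earlier results of these data known, and all 9 were among the 24618 genes of the count table.

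Roots take up sulfur as sulfate. Both SULTR1 transporters carry sulfate from the soil solution into root cells with high affinity, and their transcripts are known to respond to the sulfate supply. Inside the cell, ATP sulfurylase activates sulfate to APS, and the APS reductases reduce APS to sulfite in plastids, a step known as a control point of the pathway. Sulfite reductase then makes sulfide, which O-acetylserine (thiol) lyase joins to O-acetylserine to give cysteine. APS kinases draw APS away into sulfated compounds such as glucosinolates, sulfur-rich defense compounds of this plant family. SDI1 and SDI2 are known to repress glucosinolate synthesis, and LSU1 and LSU2 are small coiled-coil proteins whose transcripts accumulate when sulfur is scarce. The SDI and LSU transcripts are used as markers of sulfur deficiency, which acts largely through the transcription factor SLIM1.

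Transcript levels were measured by bulk RNA sequencing of polyadenylated RNA from ecotype Col-0, in 15 libraries that form 5 groups of 3 replicates, A, B and C. The groups were salt (150 mM), flg22 (250 nM of the bacterial flagellin peptide that plants perceive as a danger signal) and the mock shared by both, then mannitol (300 mM, an osmotic stress without salt ions) and its own untreated group, called the mannitol control here. Seedlings were 6 days old. According to the methods the material was roots pooled over many seedlings and harvested 3 h after treatment, whereas the labels name whole seedlings and a lower flg22 dose than the methods, and list sampling times of 0 and 3 h without assigning them to libraries. No sulfate supply was varied in the series. For imaging, the methods describe mannitol given on plates, with mock plates as control, and salt and flg22 given in liquid medium, with liquid medium as control. Whether the roots for sequencing were treated in the same way is not given in the sources used here, and any such difference cannot be told apart from the untreated groups.

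Root and shoot markers of the material were looked at first, without a test. All 10 root markers were above 1 CPM (the count scaled to its library's total and TMM factor) in every library and summed to 4406 to 12000 CPM, most of it from PYK10, an abundant root β-glucosidase. The 10 photosynthetic shoot markers summed to 79.5 to 365 CPM. RBCS3B was at 0 in at least 1 library, and the other 9 were at 1 CPM or more in every library. The lowest values of PSBR and RCA were 35.9 and 25.4 CPM. Transcripts of shoot markers were therefore present, and their source was not tested. Total counts ranged from 6094503 to 13943645 per library. Scaled by these totals without the TMM factor, the floor of 3 counts corresponded to 0.215 to 0.492 CPM, a limit that covers counting error only. Libraries within a group were further apart than counting noise alone gives, at a chi-square of 2.87 to 11.8 per degree of freedom. Within the mock, replicate B held the highest level of 8 of the 9 genes, and values without it are given where it changes a call or moves a fold by more than 1.5 times. Replicate A was highest for 8 of the 9 genes within mannitol, and replicate C for 8 of the 9 within the mannitol control.

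The sequence before each gene was read from the TAIR10.1 assembly, since the promoters of genes that moved together are the nearest regulatory sequence the annotation gives. In the 300 bases before the annotated start of each gene, the core of the sulfur-responsive element (GAGAC, or GTCTC on the other strand) and an abscisic acid responsive element (ACGTGGC, or GCCACGT on the other strand) were searched on both strands. Both motifs were chosen after the sequences were seen, so the shares of all windows are given for scale and do not measure enrichment. The sulfur-responsive core was present in 1 of the 9 windows, that of SDI1, and in 30.0% of the 27431 windows of the same length before protein-coding genes. The abscisic acid element was present in 2 of the 9, those of SDI1 and SDI2, and in 3.7% of the same windows. The SDI and LSU windows are shown because SDI1, LSU1 and LSU2 had the widest ranges of level between groups and SDI2 is the partner of SDI1, and capitals mark the motif matches. They lie on the minus strand at chr5:19807854-19808153 (SDI1), chr1:1337850-1338149 (SDI2), chr3:18375941-18376240 (LSU1) and chr5:8444102-8444401 (LSU2).
SDI1: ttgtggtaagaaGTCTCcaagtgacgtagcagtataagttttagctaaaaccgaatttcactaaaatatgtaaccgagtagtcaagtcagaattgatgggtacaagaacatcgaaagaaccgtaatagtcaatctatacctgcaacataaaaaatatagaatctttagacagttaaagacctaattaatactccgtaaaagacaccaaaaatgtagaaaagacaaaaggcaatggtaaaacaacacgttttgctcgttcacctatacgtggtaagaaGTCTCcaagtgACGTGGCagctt
SDI2: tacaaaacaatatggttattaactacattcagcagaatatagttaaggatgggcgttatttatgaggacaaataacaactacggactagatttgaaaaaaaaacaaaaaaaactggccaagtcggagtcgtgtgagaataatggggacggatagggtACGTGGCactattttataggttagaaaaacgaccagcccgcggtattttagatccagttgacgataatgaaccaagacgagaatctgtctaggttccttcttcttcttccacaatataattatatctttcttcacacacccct
LSU1: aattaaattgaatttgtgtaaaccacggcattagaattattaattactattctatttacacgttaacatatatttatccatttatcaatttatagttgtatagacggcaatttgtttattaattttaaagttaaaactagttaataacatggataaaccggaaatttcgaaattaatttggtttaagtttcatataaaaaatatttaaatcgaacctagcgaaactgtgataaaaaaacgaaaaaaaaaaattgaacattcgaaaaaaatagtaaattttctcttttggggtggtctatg
LSU2: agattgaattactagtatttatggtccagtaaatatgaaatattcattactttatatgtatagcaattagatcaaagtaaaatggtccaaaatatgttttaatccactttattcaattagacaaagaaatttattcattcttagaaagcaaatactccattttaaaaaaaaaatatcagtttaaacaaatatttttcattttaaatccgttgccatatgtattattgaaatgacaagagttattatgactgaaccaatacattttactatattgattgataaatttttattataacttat
Each is printed 5′ to 3′ on the strand of its gene and ends at the base before the annotated start. The SDI1 window held 2 copies of the sulfur-responsive core, beginning 288 and 23 bases before the start, and the abscisic acid element beginning 12 bases before it, with no overlap between the matches. Both core copies lay within a 25-base stretch, gtggtaagaagtctccaagtgacgt, that occurred at 298 and again at 33 bases before the start. In the SDI2 window the abscisic acid element began 143 bases before the start. A match is a description of letters and not of a bound site, and the LSU1 and LSU2 windows held neither motif.

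The 9 genes moved in different directions in the 4 comparisons. After salt, 7 of the 9 were up-regulated relative to mock and 0 were down-regulated, where 22.5% of all 18484 genes tested were called up and 19.4% were called down. After flg22, 0 of the 6 genes with enough counts to test passed in either direction, with 2.54% of 18230 genes called up and 1.14% called down. After mannitol, 1 of 9 was up-regulated and 6 were down-regulated relative to the mannitol control, with 26.0% of 18939 genes called up and 26.0% called down. Between the untreated groups, 7 of 9 were lower in mock than in the mannitol control and 0 were higher, with 21.6% of 18927 genes called higher and 20.9% called lower. Calls are Benjamini-Hochberg adjusted p-values under 0.05, over all genes tested, from the quasi-likelihood test of edgeR. Because the 9 genes were chosen with earlier results known, the shares of all genes, here and below, are a description and not a test. In bulk roots, fewer cells of a type and less RNA per cell cannot be told apart.

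For the counts of 0, the unadjusted p was under 0.05 for 1 gene down after salt, 1 gene up after flg22 (a transporter in each case) and 0 genes up in mock, and DESeq2 called 1, 1 and 0 there. As a median over the 9 genes, the log2 fold change was 1.90 after salt, 0.36 after flg22 (6 genes), -0.74 after mannitol and -3.63 in mock against the mannitol control. Over all genes tested the corresponding medians lay between -0.02 and 0.00. Without mock replicate B, 8 genes were up-regulated after salt, 1 after flg22, and 8 were lower in mock than in the mannitol control. Salt, flg22 and the comparison of untreated groups all use the same 3 mock libraries, so their values are not independent of each other. With upper-quartile scaling, the genes called up and down moved to 3164 and 5318 after salt, against 4154 and 3592 with TMM scaling. They moved to 403 and 345 after flg22, against 463 and 207, and to 4035 and 6247 after mannitol, against 4933 and 4929. Of the 9 genes, 5 were then up-regulated and 1 down-regulated after salt, where APR1 and a transporter lost their calls and the other transporter gained a call, and 1 up-regulated and 7 down-regulated after mannitol.

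**Figure D1:**
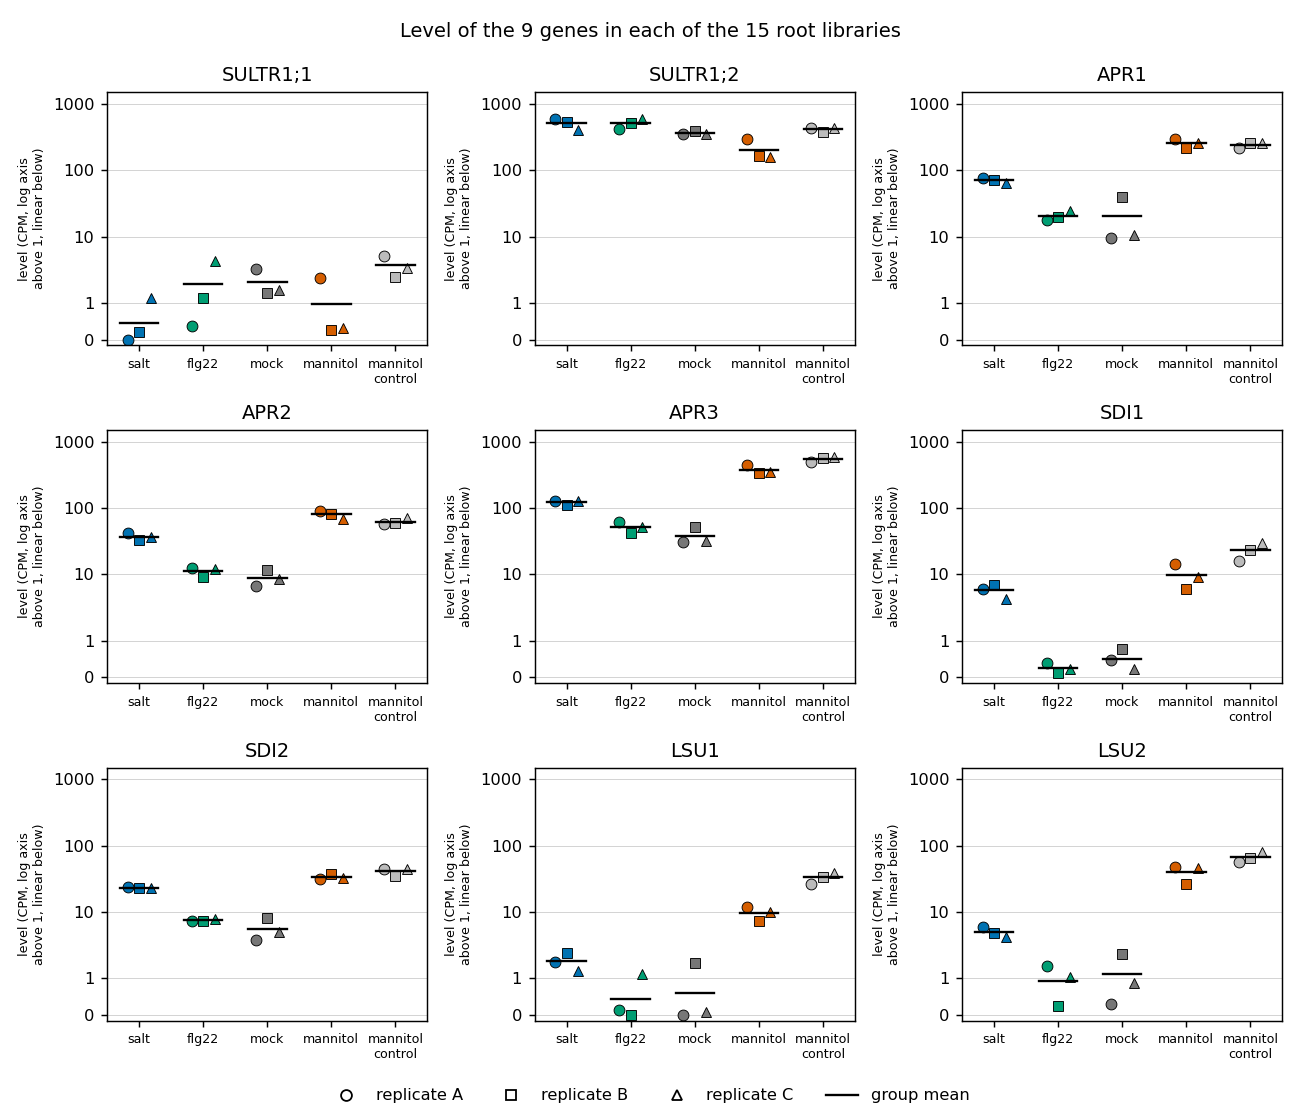
Level of each gene in every library, in TMM-scaled CPM on an axis that is logarithmic above 1 and linear below it, with groups along the horizontal axis. Symbols stand for replicates and lines for group means. The mannitol and mannitol control libraries of APR1, APR2, APR3, SDI1, SDI2, LSU1 and LSU2 all sit above every mock library.

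**Figure D2:**
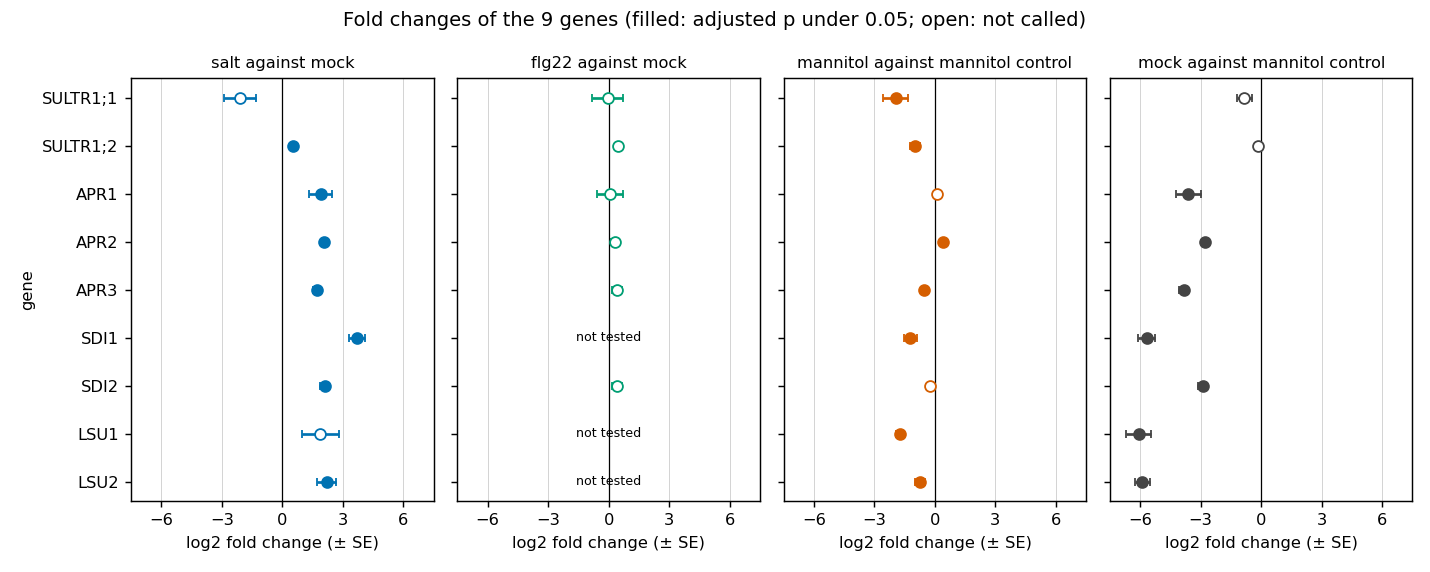
Log2 fold changes of the 9 genes with their standard errors in the 4 comparisons, with a line at 0. Filled points are the 7, 0, 7 and 7 genes with an adjusted p under 0.05, and 3 genes had too few counts to test after flg22.

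The transporters differed widely in abundance. SULTR1;2 (chromosome 1, 29327515 to 29333220, plus strand) is the main high-affinity uptake transporter of sulfate-replete roots. Its level was 595, 528 and 401 CPM in salt, against 358, 394 and 346 CPM in mock. The salt libraries all lay above the mock libraries, a log2 fold change of 0.51 ± 0.15 (SE here and below, adjusted p = 0.022). The call was lost without salt replicate A (0.34, adjusted p = 0.0836), salt replicate B (0.44, 0.0815), mock replicate A (0.49, 0.0736) or mock replicate C (0.43, 0.0865). After flg22 it was 425, 520 and 596 CPM, also above every mock library, at 0.46 ± 0.12 (adjusted p = 0.0712). Without flg22 replicate A this difference passed (0.57, adjusted p = 0.0117), as it did in DESeq2 (0.46, adjusted p = 0.0175).

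Under mannitol this transporter went the other way. It was 291, 165 and 158 CPM in mannitol, against 431, 377 and 434 CPM in the mannitol control, and the groups did not overlap. The log2 fold change was -1.004 ± 0.25 (adjusted p = 0.0144), a level 2.01-fold lower in mannitol. The mock libraries lay within or just below the range of the mannitol control, with a difference of -0.16 ± 0.08 (adjusted p = 0.125) that passed without mock replicate B (-0.21, adjusted p = 0.0211). From the highest to the lowest mean the groups were flg22 (514 ± 85.8 CPM, SD, n = 3), salt (508 ± 98.9), mannitol control (414 ± 32.0), mock (366 ± 25.3) and mannitol (204 ± 74.8), and among neighbours in this order the libraries overlapped except between mock and mannitol. The highest mean was 2.51 times the lowest.

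SULTR1;1 (chromosome 4, 5500313 to 5506313, plus strand), the transporter known for induction on low sulfate, reached 5.16 CPM at most. In salt it had 0, 2 and 10 counts, which is 0, 0.207 and 1.17 CPM, against 21, 9 and 20 counts or 3.27, 1.39 and 1.56 CPM in mock. The count of 0 in salt replicate A allows a level of up to 0.329 CPM, scaled without the TMM factor. All salt libraries lay below the mock libraries, yet the fold change of -2.10 ± 0.79 did not pass (adjusted p = 0.0617). It passed without salt replicate C (-3.995, adjusted p = 0.00432) and in DESeq2 (-2.17, adjusted p = 0.029). After flg22 it was 0.383, 1.18 and 4.30 CPM, on both sides of mock, at -0.05 ± 0.78 (adjusted p = 0.982). In mannitol it was 2.34, 0.273 and 0.325 CPM, below the 5.16, 2.48 and 3.37 CPM of the mannitol control.

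This fall in mannitol was -1.95 ± 0.63 (adjusted p = 0.0277) and rested on few counts. It was larger without mannitol replicate A, the highest of the group (-3.54). It no longer passed without mannitol replicate C (-1.50, adjusted p = 0.0929), mannitol control replicate A (-1.63, 0.0741) or mannitol control replicate C (-2.01, 0.0511), nor in DESeq2 (-1.88, 0.098). Mock and the mannitol control overlapped, at -0.84 ± 0.38 (adjusted p = 0.0974), and without mock replicate A, its highest library, mock was lower (-1.26, adjusted p = 0.0318). Per kilobase of exon it averaged 1.56 ± 0.577 CPM in the mannitol control, where SULTR1;2 averaged 98.7 ± 7.64 CPM (SD, n = 3 each). The SULTR1;2 value was divided by 4193 bases, all exon bases of 7 annotated transcripts, and that of SULTR1;1 by the 2359 bases of 1 transcript. The SULTR1;2 value is therefore less certain in size. Across the coding sequence 69.6% of aligned bases were identical between both transporters, and no 100-base window of either was shared with another gene.

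The APS reductases all rose after salt, overlapped mock after flg22, and stood several fold lower in mock than in the mannitol control. APR2 (chromosome 1, 22975530 to 22977885, minus strand) encodes the isoform known to carry most of the reductase activity. It was 41.2, 32.7 and 36.9 CPM in salt, against 6.54, 11.6 and 8.58 CPM in mock. No salt library came near the mock range, and the fold change was 2.09 ± 0.19 (adjusted p = 2.33e-05), or 4.26-fold. After flg22 it was 12.3, 9.05 and 12.1 CPM, overlapping mock, at 0.29 ± 0.21 (adjusted p = 0.534).

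In mannitol APR2 was 90.5, 81.8 and 68.5 CPM, against 57.5, 58.2 and 69.9 CPM in the mannitol control. It was the 1 gene of the 9 to be called up there, by 0.39 ± 0.11 (adjusted p = 0.00783), although the lowest mannitol library lay below the highest control library. In mock it was lower than in the mannitol control by 6.88-fold, at -2.78 ± 0.17 (adjusted p = 1.59e-06). Reads of APR2 have a limit that the other reductases largely lack. Its exons share 46.4% of their bases with genes on the opposite strand, and the libraries carry no strand information. Of these, AT1G62170 stood at 0.0346 CPM in salt on average and at 0 in the remaining groups, and AT1G08477 was not analysed here.

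APR3 (chromosome 4, 11657008 to 11659167, minus strand) was the most abundant reductase. It was 127, 110 and 129 CPM in salt, against 30.4, 51.6 and 31.3 CPM in mock, with no overlap. The fold change was 1.73 ± 0.20 (adjusted p = 0.000313). After flg22 it was 61.4, 41.1 and 52.3 CPM, at 0.43 ± 0.25 (adjusted p = 0.455), the lowest flg22 library lying below mock replicate B. In mannitol it was 439, 331 and 344 CPM, against 500, 560 and 579 CPM in the mannitol control. Every mannitol library was below every control library, at -0.54 ± 0.10 (adjusted p = 0.000705). Mock was 14.4-fold lower than the mannitol control, at -3.85 ± 0.23 (adjusted p = 0.0001). The 27 exon bases that APR3 shares with APG8A, an autophagy gene on the other strand, make up 1.5% of its exons.

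APR1 (chromosome 4, 2324878 to 2327064, plus strand) showed how far mock replicate B can weigh. It was 76.2, 72.4 and 64.9 CPM in salt, against 9.65, 39.9 and 10.6 CPM in mock, so that mock replicate B stood far above the other mock libraries and still below every salt library. The fold change was 1.90 ± 0.57 (adjusted p = 0.0456), and 2.84 (adjusted p = 9.66e-07) without mock replicate B. The call was lost when any other library was left out, with adjusted p-values between 0.0858 (1.59, without mock replicate A) and 0.136 (1.82, without salt replicate A), including those without mock replicate C (1.51, 0.0914), salt replicate B (1.85, 0.124) and salt replicate C (1.99, 0.12). After flg22 it was 17.8, 19.9 and 24.5 CPM, at 0.06 ± 0.63 (adjusted p = 0.976), and 0.99 (adjusted p = 0.00982) without mock replicate B.

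Under mannitol APR1 overlapped its control, although mannitol replicate A lay above every control library. It was 298, 220 and 256 CPM in mannitol, against 213, 254 and 256 CPM in the mannitol control, at 0.11 ± 0.11 (adjusted p = 0.403). The 95% interval of this log2 difference ran from -0.10 to 0.33. Mock was lower than the mannitol control by 12.4-fold, at -3.63 ± 0.62 (adjusted p = 0.0115), and by -4.53 on the log2 scale without mock replicate B. Per kilobase of exon in the mannitol control, APR3 averaged 299 ± 22.5 CPM, APR1 125 ± 12.6 CPM and APR2 30.2 ± 3.38 CPM (SD, n = 3 each). The APR2 value was divided by all exon bases, 46.4% of which overlap genes on the opposite strand. It is therefore less certain in size than the values of APR1 and APR3. The coding sequences of APR1 and APR3 were identical at 80.1% of aligned bases, and those of APR2 at 72.7% with APR1 and 71.8% with APR3. No 100-base window was shared between them.

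SDI1 and SDI2, which restrain glucosinolate synthesis, were up-regulated after salt, with every salt library above every mock library. SDI1 (chromosome 5, 19805437 to 19807853, minus strand), whose upstream window carries both motifs shown above, was 5.99, 6.95 and 4.20 CPM in salt, against 0.467, 0.770 and 0.234 CPM in mock. The mock values rest on 3, 5 and 3 counts, so the 13.0-fold difference is uncertain in size. Its log2 value was 3.70 ± 0.42 (adjusted p = 9.46e-05), the largest of the 9 genes and rank 215 from the top of the 18484 genes. After flg22 there were 3, 1 and 2 counts, too few to test.

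Mannitol lowered SDI1. It was 14.1, 6.02 and 9.18 CPM in mannitol, against 15.8, 23.5 and 29.3 CPM in the mannitol control, the highest mannitol library lying just below the lowest control library. The fold change was -1.23 ± 0.33 (adjusted p = 0.0188). It no longer passed without mannitol replicate C (-1.19, adjusted p = 0.0777) or mannitol control replicate B (-1.22, 0.0508). Between the untreated groups the difference was much wider. Mock was 51.1-fold lower than the mannitol control, at -5.68 ± 0.42 (adjusted p = 2.21e-05), rank 12 from the bottom of 18927 genes. Mock held 11 counts in all. From the summed counts, the ratio of the mannitol control to mock was 54.0, with a 95% interval from counting error alone of 30.0 to 108.

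SDI2 (chromosome 1, 1336274 to 1337849, minus strand) was also called up after salt and lower in mock, over a narrower range, and was not called after mannitol. It was 24.1, 22.6 and 22.7 CPM in salt, against 3.74, 8.01 and 4.91 CPM in mock. The salt libraries were tightly grouped and clear of mock, at 2.11 ± 0.22 (adjusted p = 6.05e-05). After flg22 it was 7.41, 7.40 and 7.91 CPM, all below mock replicate B and above the remaining mock libraries, at 0.43 ± 0.25 (adjusted p = 0.423). In mannitol it was 31.7, 37.5 and 32.8 CPM, against 44.6, 34.4 and 45.0 CPM in the mannitol control. These groups overlapped, at -0.26 ± 0.11 (adjusted p = 0.0656), a difference that passed without mannitol replicate B (-0.34, adjusted p = 0.0411) or mannitol control replicate B (-0.39, 0.00958).

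In mock SDI2 was 7.44-fold lower than in the mannitol control, at -2.90 ± 0.23 (adjusted p = 2.24e-05). Its exons share 27.4% of their bases with VAMP726, a vesicle fusion gene on the other strand. VAMP726 averaged 3.14 CPM in salt, 3.21 in flg22, 2.33 in mock, 2.81 in mannitol and 3.39 in the mannitol control, all below the SDI2 means of 23.1, 7.57, 5.55, 34.0 and 41.3 CPM. Reads from the shared stretch cannot be assigned to either strand. SDI1 and SDI2 were identical at 61.5% of aligned coding bases.

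LSU1 and LSU2 showed the widest differences between the untreated groups. LSU2 (chromosome 5, 8443279 to 8444101, minus strand) was 5.99, 4.88 and 4.20 CPM in salt, against 0.311, 2.31 and 0.858 CPM in mock. No library overlapped, at 2.19 ± 0.47 (adjusted p = 0.00483) and 2.94 without mock replicate B. After flg22 it had 12, 2 and 9 counts and was not tested. In mannitol it was 47.2, 26.6 and 45.4 CPM, against 55.7, 65.1 and 80.5 CPM in the mannitol control.

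The mannitol libraries of LSU2 all lay below the control, at -0.74 ± 0.23 (adjusted p = 0.0347). The call was lost without mannitol replicate A (-0.88, adjusted p = 0.107), mannitol replicate C (-0.85, 0.0606), mannitol control replicate B (-0.77, 0.0683) or mannitol control replicate C (-0.60, 0.0644). In mock LSU2 was 59.8-fold lower than in the mannitol control, at -5.90 ± 0.37 (adjusted p = 5.81e-05) and -6.60 without mock replicate B. That placed it at rank 9 from the bottom of all genes tested.

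LSU1 (chromosome 3, 18374908 to 18375940, minus strand) lay next to the floor in mock and flg22. It had 15, 23 and 11 counts in salt, which is 1.73, 2.39 and 1.28 CPM, against 0, 11 and 1 counts in mock, which is 0, 1.69 and 0.078 CPM. Because mock replicate B overlapped the salt libraries, the fold change of 1.89 ± 0.92 did not pass (adjusted p = 0.137). It was 4.84 (adjusted p = 0.00145) without mock replicate B and 1.07 (adjusted p = 0.372) without mock replicate C. After flg22 there were 1, 0 and 10 counts, and LSU1 was not tested. The 0 counts in mock replicate A and flg22 replicate B allow up to 0.492 and 0.350 CPM, scaled without the TMM factor.

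LSU1 also fell in mannitol. It was 11.99, 7.29 and 10.1 CPM in mannitol, against 26.6, 33.7 and 39.1 CPM in the mannitol control. The groups were far apart, at -1.75 ± 0.18 (adjusted p = 5.01e-06), or 3.36-fold lower in mannitol. In mock it was lower than in the mannitol control by 67.5-fold, at -6.08 ± 0.63 (adjusted p = 0.000921), rank 7 from the bottom. This value was -9.03 without mock replicate B and -5.24 without mock replicate C. Mock held 12 counts in all. From the summed counts, the ratio of the mannitol control to mock was 71.4, with a 95% interval from counting error alone of 40.7 to 138. The coding sequences of LSU1 and LSU2 were identical at 71.6% of aligned bases.

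**Figure D3:**
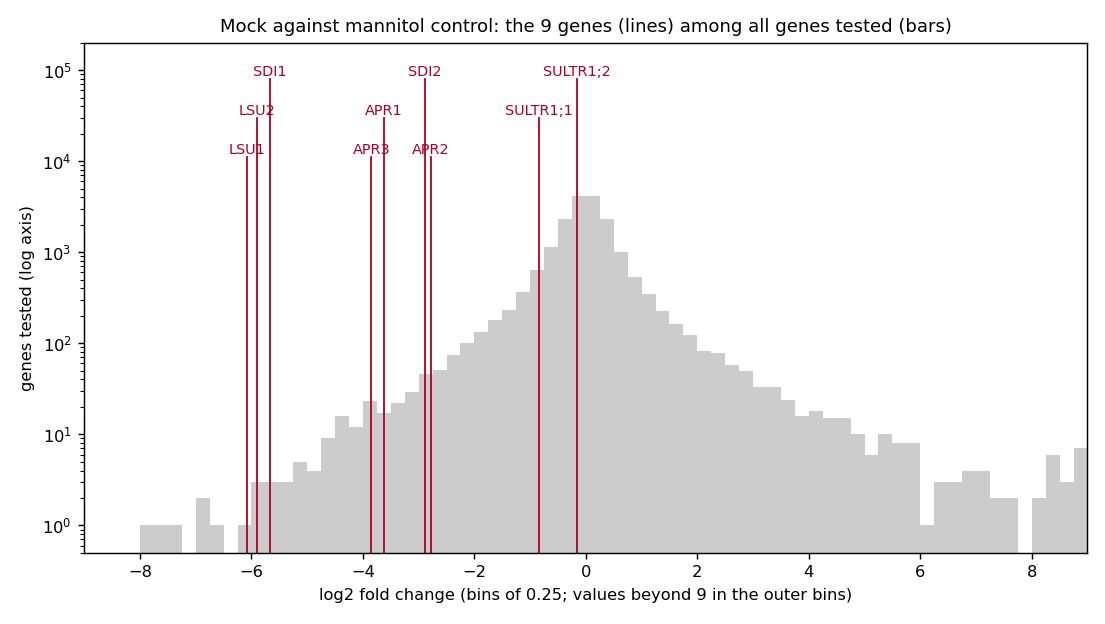
Number of genes tested (log axis) by log2 fold change of mock against the mannitol control, in bins of 0.25, with lines at the values of the 9 genes. LSU1, LSU2 and SDI1 sit at -6.08, -5.90 and -5.68 in the lower tail, and APR2 sits at -2.78.

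Taking the 5 groups in order of level, the reductases, the SDI and the LSU genes shared one arrangement. Their highest means were in mannitol (APR1 and APR2) or the mannitol control (the other 5), the remaining one of this pair came next, salt was in the third place, and flg22 and mock came last with overlapping libraries in all 7 genes. The ratio of the highest to the lowest group mean was 93.6 for SDI1, 77.0 for LSU1 and 71.5 for LSU2, whose lowest group was flg22. Their flg22 means rest on 3, 1 and 2 counts for SDI1, 1, 0 and 10 for LSU1 and 12, 2 and 9 for LSU2. These ratios are therefore uncertain in size. The ratio was 14.5 for APR3, 12.9 for APR1, 9.03 for APR2 and 7.44 for SDI2, whose lowest group was mock. Salt libraries did not overlap the mannitol control for any of these 7 genes, but SDI1 in salt (5.71 ± 1.40 CPM) overlapped SDI1 in mannitol (9.78 ± 4.09 CPM, SD, n = 3 each). Root markers differed between groups as well, with 10 of 10 above 1 CPM in every group and none at 0. Their sum was 5312 to 5732 CPM in salt and 4406 to 4638 CPM in mock, and 6536 to 7671 CPM in mannitol and 11070 to 12000 CPM in the mannitol control. Most of it was PYK10, at 3820 to 3980 CPM in mock and 10600 to 11600 CPM in the mannitol control. The sum of the other 9 markers ran the opposite way, at 586 to 706 CPM in mock and 375 to 426 CPM in the mannitol control. These 9 summed to 995 to 1200 CPM in salt and to 453 to 568 CPM in mannitol. A sum does not show each marker. Without overlap of libraries, 5 of the 10 markers lay above the mannitol control in mock and 2 below. In mannitol 2 lay above the mannitol control and 6 below, and in salt 4 lay above mock and 3 below. The part of these differences in the results was not tested.

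Whether salt and mannitol changed the genes differently was tested as the salt response minus the mannitol response in a fit of 12 libraries. The difference was positive and passed for 7 of the 9 genes and negative for 0, with 11.5% of 19363 genes called up and 8.0% called down. At an unadjusted p under 0.05, 8 genes were up and 0 down, and DESeq2 called 7 up and 0 down. SDI1 had the largest difference, 4.95 ± 0.67 on the log2 scale (adjusted p = 0.000309), rank 27 from the top of all genes tested. LSU1 followed at 3.68 ± 0.85 (adjusted p = 0.0105), with 6.63 without mock replicate B and 2.86 without mock replicate C. LSU2 differed by 2.95 ± 0.58 (adjusted p = 0.00459), and by 3.66 without mock replicate B. The other called differences were 2.38 ± 0.24 for SDI2, 2.27 ± 0.25 for APR3, 1.70 ± 0.23 for APR2 and 1.502 ± 0.32 for SULTR1;2, with adjusted p-values from 1.21e-05 to 0.00746. APR1 missed the threshold at 1.80 ± 0.59 (adjusted p = 0.0658) and passed without mock replicate B (2.72, adjusted p = 2.95e-07). For SULTR1;1 the difference was -0.16 ± 1.18 (adjusted p = 0.95), with a 95% interval from -2.48 to 2.16, and it was -2.09 without salt replicate C and 1.41 without mannitol replicate A. Both treatments were set against untreated groups of unlike level, since the 7 genes called in the comparison of untreated groups started lower in mock.

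The pathway around the 9 genes was described with a list of 35 further sulfur genes, also chosen with earlier results of these data known. After salt, 16 of the 31 tested were up-regulated and 6 down-regulated, where 22.5% and 19.4% of all genes were, and their median log2 fold change was 0.30. The 3 largest increases were in a pair of transporters and in a β-glucosidase. SULTR3;4, known as a transporter of the vasculature, was 432, 353 and 282 CPM in salt, against 7.63, 11.1 and 4.05 CPM in mock (5.67 ± 0.38, adjusted p = 8.15e-05). SULTR3;1, a transporter of the chloroplast envelope, had 63, 61 and 20 counts in salt, against 1, 1 and 0 in mock, a ratio of 68.9 with a 95% counting interval from 18.7 to 574. BGLU28, a β-glucosidase that breaks down glucosinolates when sulfur is short, was 4.47 ± 1.55 CPM in salt and 0.257 ± 0.445 CPM in mock (SD, n = 3 each), at 4.42 ± 0.81 (adjusted p = 0.0028). Its mock counts were 0, 5 and 0, so the mock mean came from replicate B alone. The ratio of salt to mock was 22.8 with a counting interval from 9.49 to 71.4. The largest decreases were in SULTR3;5 (-2.37 ± 0.31, adjusted p = 0.000218), in SULTR2;2 (-1.19 ± 0.26, adjusted p = 0.00497) and in the APS kinase APK4 (-1.09 ± 0.33, adjusted p = 0.0314). Leaving out 1 library at a time gave 11 to 18 up-regulated and 3 to 7 down-regulated genes, upper-quartile scaling gave 11 and 9, and a fit of all 15 libraries gave 16 and 11 of 35.

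After flg22, 1 of the 28 tested was up-regulated and 0 were down-regulated, near the 2.54% and 1.14% of all genes. It was SERAT2;1, a serine acetyltransferase that makes the carbon backbone of cysteine, at 131, 127 and 134 CPM in flg22, against 82.8, 98.0 and 79.9 CPM in mock (0.56 ± 0.09, adjusted p = 0.00981). Leaving out single libraries gave 0 to 3 genes up and 0 down. After mannitol, 10 of 35 were up-regulated and 12 down-regulated, shares near the 26.0% of all genes called in either direction. SULTR3;1 (6.14 ± 0.31, adjusted p = 2.25e-09), BGLU28 (5.59 ± 0.37, adjusted p = 5.53e-08) and SULTR3;4 (3.50 ± 0.11, adjusted p = 3.05e-11) rose most, which are the same 3 genes as after salt. The first of these had 91, 110 and 113 counts in mannitol, against 1, 2 and 2 in the mannitol control, a ratio of 75.4 with a counting interval from 32.0 to 234. BGLU28 was 20.3, 14.3 and 10.3 CPM in mannitol, against 0.409, 0.138 and 0.383 CPM in the mannitol control. SULTR3;5 (-2.90 ± 0.31, adjusted p = 1.65e-05), SULTR1;3 (-2.14 ± 0.30, adjusted p = 4.83e-05), the third transporter of the high-affinity group, and SULTR2;2 (-2.11 ± 0.28, adjusted p = 2.67e-05) fell most.

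Between the untreated groups, 4 of the 33 tested were higher in mock and 23 were lower, where 21.6% of all genes were higher and 20.9% lower. LSU3 had 0, 2 and 1 counts in mock, against 337, 422 and 524 in the mannitol control, a ratio of the mannitol control to mock of 277 with a counting interval from 94.5 to 1340. GGCT2;1, which breaks down glutathione, was 0.311, 0.154 and 0.234 CPM in mock, against 5.73, 5.66 and 4.44 CPM in the mannitol control (-4.41 ± 0.37, adjusted p = 3.25e-06). LSU4 had 3, 4 and 1 counts in mock, against 50, 45 and 61 in the mannitol control, a ratio of the mannitol control to mock of 12.6 with a counting interval from 6.25 to 29.8. Higher in mock were APK4 (2.27 ± 0.30, adjusted p = 0.000355), SLIM1 (0.37 ± 0.11, adjusted p = 0.0145) and the glutathione synthetase GSH2 (0.28 ± 0.07, adjusted p = 0.00421). SLIM1, the regulator of the sulfur deficiency response, was 26.0, 31.4 and 27.8 CPM in mock, against 23.7, 20.8 and 22.3 CPM in the mannitol control. Leaving out single libraries gave 2 to 4 genes higher and 21 to 26 lower in mock. In the difference of the salt and the mannitol response, 9 of 35 passed upward (11.5% of all genes), led by LSU3 (5.59 ± 0.88, with 3 counts in all of mock), GGCT2;1 (3.35 ± 0.51) and SULTR3;4 (2.18 ± 0.38), and 2 passed downward (8.0% of all genes), APK4 (-1.84 ± 0.41) and GSH2 (-0.45 ± 0.09), with adjusted p-values from 0.000291 to 0.00502.

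**Figure D4:**
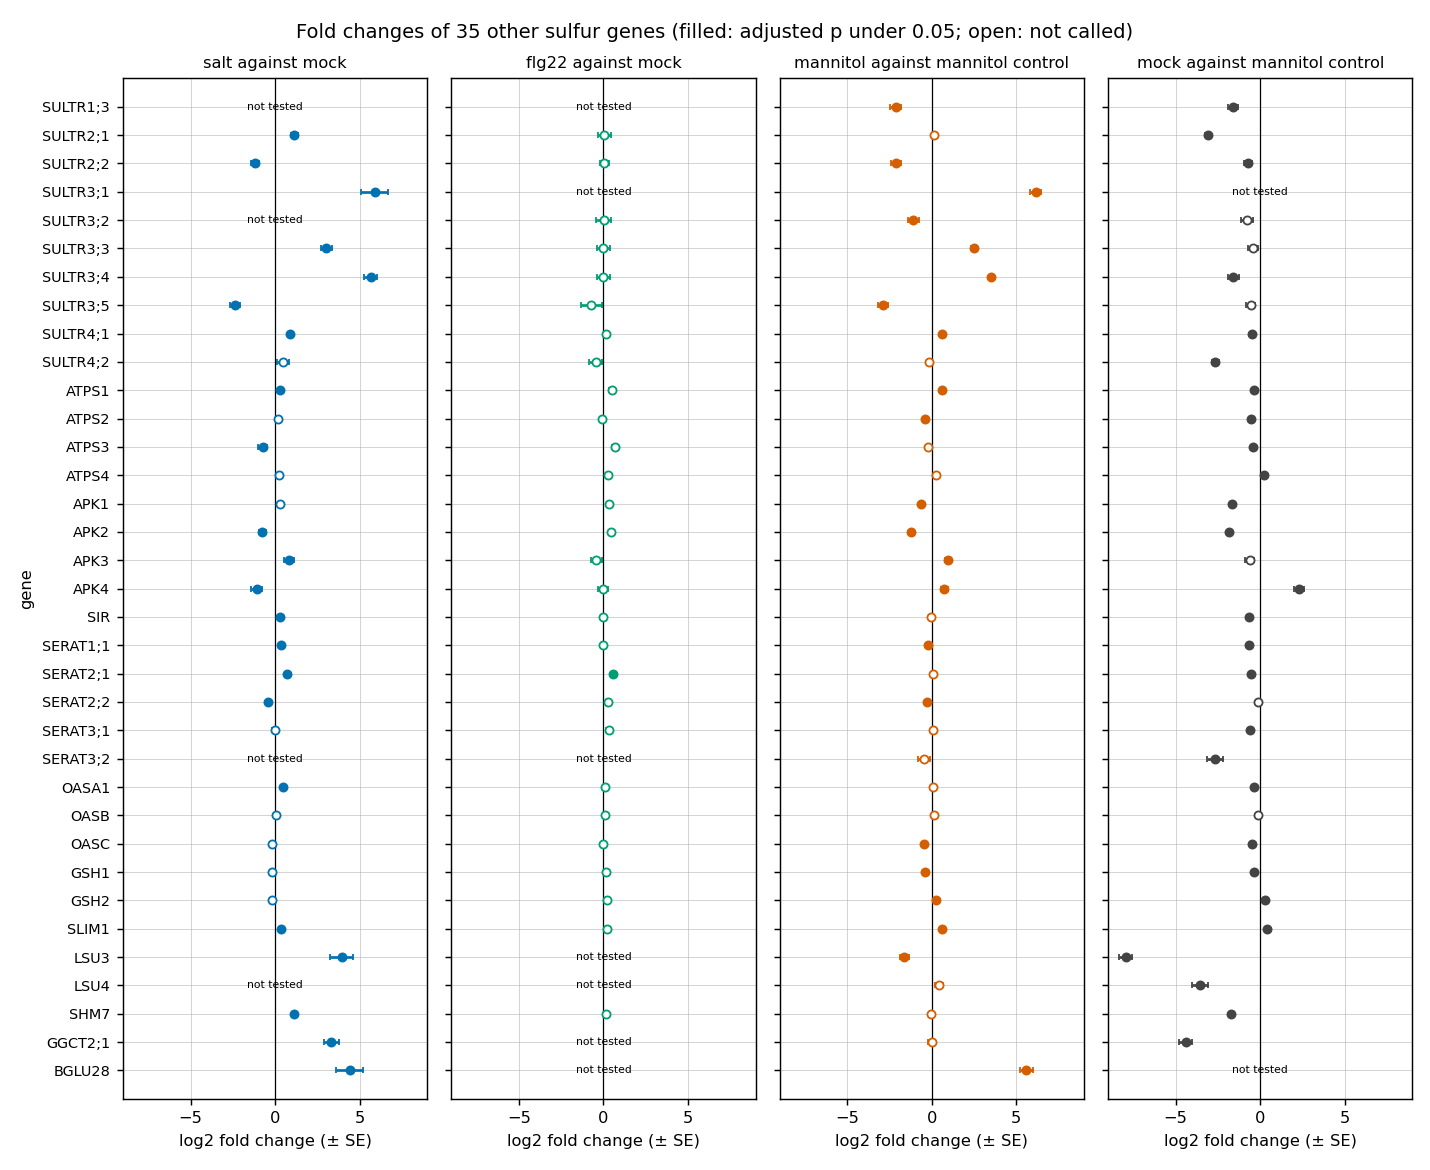
Log2 fold changes with standard errors of 35 other sulfur genes in the 4 comparisons, with a line at 0 and filled points for an adjusted p under 0.05. BGLU28 stands far right after salt and after mannitol, and LSU3 stands far left in mock against the mannitol control.

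The genes with the pattern most like each of the 9 over the 15 libraries were found by the root mean square difference of centred log2(CPM + 1) values among 15402 genes with a mean of at least 5 CPM (15403 for SULTR1;1). LSU1 was closest to LSU3 (0.38), its neighbour on chromosome 3, and to AT5G38020 (0.38). LSU2 was closest to AT1G14120 (0.32) and LSU3 (0.48). APR1 was closest to APR3 (0.41) and the glucosyltransferase gene UGT84A3 (0.44), and APR3 to AT4G30650 (0.37) and AT4G23670 (0.39). APR2 was closest to Hop3 (0.27) and AT2G23910 (0.27), and SDI2 to the flavonol synthase FLS1 (0.26) and to APR2 (0.30). SDI1 was closest to GDU4 (0.38) and XTH32 (0.42), SULTR1;2 to AT3G32980 (0.18) and AT2G46620 (0.25), and SULTR1;1 to AT5G05180 (0.52) and AT1G49390 (0.54). The own spread of the 9 genes ran from 0.55 for SULTR1;2 to 2.19 for LSU2 on the same scale. Against it the differences were small for the reductases, the SDI and the LSU genes. They were larger in proportion for SULTR1;2, and most so for SULTR1;1, whose own spread was 0.81. The genes named are the nearest of all those compared, so small differences follow in part from that choice and are a description only. LSU1 and LSU3 were identical at 80.7% of aligned coding bases, with no shared 100-base window in LSU1.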

How the data were processed

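RNA sequencing libraries (15, Col-0) were analysed from the raw counts per gene that the authors deposited. Per the methods and submitters' notes, the authors trimmed reads (Trimmomatic), mapped them to Araport11, removed duplicates (Picard) and counted them (HTSeq). The aligner and the versions are not given in the sources used here. Columns of the mannitol control, named differently from their titles, were assigned because the labels describe a single second untreated group. No column was left unused (0).

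Genes were filtered (filterByExpr, minimum count 10), scaled (TMM) and tested with edgeR's quasi-likelihood test in each comparison (3 libraries per group), with Benjamini-Hochberg adjustment over all genes tested and a threshold of 0.05. Standard errors are the log2 fold change divided by the square root of its F statistic. The 95% intervals of log2 differences use these errors with a normal quantile, so they are narrower than the test itself would give. Salt minus mannitol responses were compared in 1 fit. Nothing states that replicates were separate cultures, so p-values measure the spread between these samples. Where 1 library was left out, the group of 2 shares its spread with the rest of the fit. Scripts were tested on simulated data.

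Alternatives comprised the size factors of DESeq2, upper-quartile scaling, no filter, at least 10 counts in every library, DESeq2's Wald test, a log2 fold change of at least 1, a replicate block, all 15 libraries in 1 fit, and each library left out. Text names all 9 genes, the 3 largest called increases and decreases of the 35 pathway genes per comparison, and the nearest 2 genes by pattern. Members and lists were chosen with earlier results of these data known. Coordinates and sequences come from TAIR10.1, to which all 24618 identifiers were matched. Software was R 4.3.3, edgeR 4.0.16, limma 3.58.1, DESeq2 1.42.0, Python 3.11.15, numpy 2.4.6, pandas 2.3.3, scipy 1.17.1 and matplotlib 3.10.9.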

Additional observations from a re-analysis of the deposited data

Results flagged for a closer look

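For 7 of the 9 genes the response to salt differed from the response to mannitol in the test of the difference itself (edgeR's quasi-likelihood test, adjusted p under 0.05), each with the salt response the higher. The log2 differences were 4.945 for SDI1, 3.683 for LSU1, 2.952 for LSU2, 2.375 for SDI2, 2.271 for APR3, 1.696 for APR2 and 1.502 for SULTR1;2. SDI1, LSU2, SDI2, APR3, APR2 and SULTR1;2 were called up after salt, and of these APR2 was also called up after mannitol. The untreated groups from which the responses are measured differed themselves for all of these genes except SULTR1;2, and the part of that starting level in the difference was not tested.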

How the results depend on the processing

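The number of the 9 genes called was 5 to 8 after salt, 0 to 1 after flg22, 4 to 8 after mannitol, 7 to 8 in mock against the mannitol control and 7 to 8 for the difference of responses when 1 library was left out at a time. After flg22, DESeq2's Wald test called 1 gene. After mannitol, 4 genes were left with a log2 fold change of at least 1. With at least 10 counts in every library only 5 of the 9 genes could be tested in mock against the mannitol control and in the difference of responses, and 4 were called in each. Over 619 settings of 42 single-gene results, 33 lost the call, 15 gained it and 571 stayed on the same side of the threshold. No called value changed sign (0), but values of 4 results not called took the other sign in 13 settings: SULTR1;1 after flg22 (up to 0.41), APR1 after flg22 (down to -0.30) and after mannitol (-0.005), and SULTR1;1 for the difference of responses (up to 1.41). Beside those named in the report, SULTR1;2 (0.35, adjusted p = 0.0562) and APR1 (1.75, 0.0611) lost the salt call with upper-quartile scaling, SULTR1;2 with all 15 libraries in 1 fit (0.47, 0.103) and APR1 without a count filter (1.87, 0.0955). Without a count filter the mannitol calls of SULTR1;1 (-1.963, 0.0588), SDI1 (-1.24, 0.0563) and LSU2 (-0.75, 0.0916) were lost, and the cause was not tested. Upper-quartile scaling set the median of all genes to -0.16 after salt, against -0.01 with TMM.

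No source names a shared batch for replicates of the same letter. The correlations of their deviations between compared groups ran from -0.237 to 0.086, and were not set against those of unlike letters. With a replicate block, 6 genes were called after salt, 0 after flg22, 6 after mannitol, 8 in mock against the mannitol control and 7 for the difference of responses. The block ended the calls of APR1 after salt (2.098, adjusted p = 0.0542) and SDI1 after mannitol (-1.24, 0.0609) and gave that of SULTR1;1 in mock (-0.84, 0.039). Over all genes the block left 132 up and 8 down after flg22, against 463 and 207 without it. Depth limits SULTR1;1, SDI1, LSU1 and LSU2 in salt, flg22 and mock, where single libraries held 0 to 67 counts.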
